A study of Mus musculus with 4 samples.

Results

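Across the autosomes of mouse embryonic stem cells, 243 long stretches were found in which replication-associated strand polarity kept a single sign at high amplitude. Polarity is the signed strand imbalance of captured DNA 3′ ends, in points from -50 to 50, given for windows of 100 kb that start every 25 kb. A stretch was kept where the mean of both wild-type libraries was 15 points or more, or -15 points or less, in at least 20 consecutive windows, so the stretches were selected on the wild-type values. The 243 stretches are the longest of 4305 runs of 1 or more windows past that threshold, and they hold 5925 of 95024 autosomal windows with a value in both wild-type libraries (6.24%). Wild-type levels inside them are given as a description only.

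The profiles come from TrAEL-seq of the mouse embryonic stem cell line 129S6/SvEvTac. There were 2 wild-type libraries (WT) and 2 libraries labelled SNF2KO (KO), described by the series as lacking Snf2h, the ATPase of the ISWI chromatin remodelling complexes. All cells were grown in serum with LIF on gelatin and cultured in duplicate, and the labels do not say how the knockout was made or whether it is 1 clone. They also print 1 index sequence for both WT libraries, which differs from the column name of WT replicate 2. Read depth is unknown, since the table holds no counts, and expression of Snf2h was not analysed here. Amplitude differed between libraries of 1 genotype as well as between genotypes. The SD of polarity over autosomal windows was 14.6 and 12.9 points in WT replicates 1 and 2, and 19.4 and 14.5 points in KO replicates 1 and 2.

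TrAEL-seq marks free DNA 3′ ends, which are abundant at replication forks, so the strand that carries them reads the direction in which forks moved through a window. Forks leave a zone of initiation in both directions and meet opposing forks in zones of termination, so that polarity turns sharply where initiation is focused and slowly where termination is dispersed. Mouse initiation zones are known to lie near active, CpG-rich promoters of gene-dense regions. The strand counted as positive is not stated in the sources used here. The ends of a stretch are therefore named by the profile alone. Read up the chromosome, polarity rises at the start of a positive stretch and at the end of a negative one (the rising end), and it falls at the other end (the falling end). Values below are often given along the sign, that is, multiplied by -1 in negative stretches.

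Promoters near the ends of 3 of the 10 longest stretches are shown as examples for the counts over all stretches given further on. The 250 bases upstream of the first base of genes near these ends are printed 5′ to 3′ on the gene's strand, from RefSeq on GRCm38.p6, with each CpG, which reads the same on both strands, in capitals. The genes were chosen after their CpG content was seen, so that the examples are no evidence for a difference between the ends, and none is printed for the falling end of the Spry2 stretch. Near rising ends lie Spry2, an inhibitor of receptor tyrosine kinase signalling (23 CpG, chr14:105896820-105897069, minus strand), Tle4, a transcriptional corepressor (24 CpG, chr19:14598184-14598433, minus strand), and Cdc73, a subunit of the PAF1 elongation complex (47 CpG, chr1:143702894-143703143, minus strand). Near falling ends lie the olfactory receptor gene Olfr1490 (0 CpG, chr19:13654196-13654445, plus strand) and Rgs21, a regulator of G protein signalling (2 CpG, chr1:144567668-144567917, minus strand). Tle4 and Olfr1490 belong to opposite ends of 1 stretch, and so do Cdc73 and Rgs21. Cdc73 begins 22.1 kb outside the rising end of its stretch. Glrx2, with 8 CpG, begins nearer to that end, 14.3 kb inside, and B3galt2, with 4 CpG, begins 84.3 kb outside it. Rgs21 begins 107 kb inside the falling end.
Spry2: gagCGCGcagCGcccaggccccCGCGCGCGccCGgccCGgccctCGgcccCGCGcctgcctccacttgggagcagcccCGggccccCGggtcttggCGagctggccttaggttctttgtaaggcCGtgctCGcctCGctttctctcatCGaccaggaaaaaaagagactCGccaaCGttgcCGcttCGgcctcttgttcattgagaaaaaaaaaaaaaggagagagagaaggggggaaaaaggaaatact
Tle4: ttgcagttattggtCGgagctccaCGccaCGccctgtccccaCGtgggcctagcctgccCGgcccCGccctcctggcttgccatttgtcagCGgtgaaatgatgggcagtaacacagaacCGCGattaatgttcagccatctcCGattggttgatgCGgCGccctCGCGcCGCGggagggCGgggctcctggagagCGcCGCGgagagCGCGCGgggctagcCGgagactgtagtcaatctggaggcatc
Cdc73: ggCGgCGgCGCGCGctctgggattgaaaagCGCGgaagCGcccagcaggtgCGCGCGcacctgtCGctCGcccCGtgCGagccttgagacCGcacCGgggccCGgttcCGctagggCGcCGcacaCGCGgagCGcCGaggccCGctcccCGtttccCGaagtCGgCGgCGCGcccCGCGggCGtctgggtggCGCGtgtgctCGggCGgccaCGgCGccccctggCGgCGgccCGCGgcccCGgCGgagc
Olfr1490: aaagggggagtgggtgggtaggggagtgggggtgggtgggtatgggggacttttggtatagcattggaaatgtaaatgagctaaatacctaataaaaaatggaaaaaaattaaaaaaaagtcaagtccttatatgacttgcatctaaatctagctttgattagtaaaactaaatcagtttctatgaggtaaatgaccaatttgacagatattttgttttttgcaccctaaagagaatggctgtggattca
Rgs21: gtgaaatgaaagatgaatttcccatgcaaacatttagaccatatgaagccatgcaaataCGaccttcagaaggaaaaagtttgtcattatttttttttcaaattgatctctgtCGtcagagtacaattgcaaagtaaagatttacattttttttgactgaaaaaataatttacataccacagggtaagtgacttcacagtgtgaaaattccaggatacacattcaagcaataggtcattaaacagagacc

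The stretches were 575 to 1000 kb long (median 675 kb) and covered 166.35 Mb, or 6.98% of the usable autosomal length. Positive and negative stretches were equally common, 123 and 120, with median lengths of 650 and 675 kb. Only 28 reached 30 windows. The length threshold cut through a continuous distribution, with 39 stretches of exactly 20 windows (575 kb) and 42 runs of exactly 19 windows (550 kb) just outside it. Mean WT polarity along the sign was 22.2 points in the former and 21.3 points in the latter. On the polarity threshold, the lowest window inside a stretch was at 15.0 points and the median of the lowest windows was 15.7, whereas the windows next to a stretch had a median of 13.1.

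**Figure D1:**
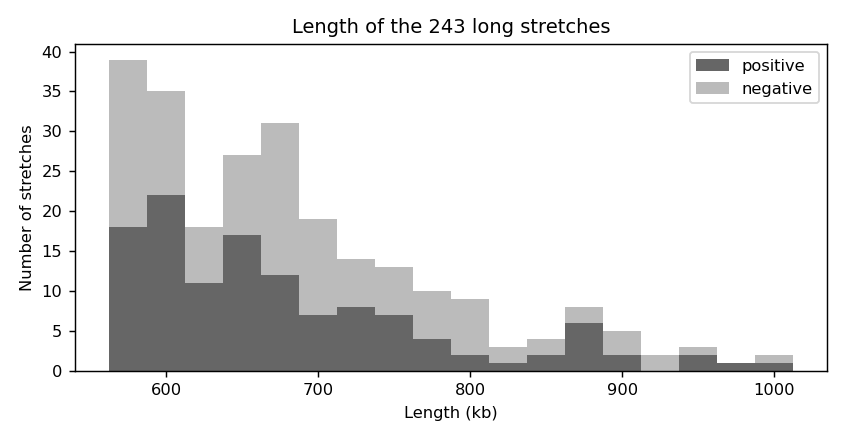
Number of long stretches (vertical axis) by length in kb (horizontal axis, bins of 25 kb), with positive stretches in dark and negative stretches in light grey. The counts are highest at 575 kb, the shortest length the rule allows, and no stretch exceeds 1000 kb.

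Every autosome carried such stretches. Chromosome 19 had the largest share of its usable length in them (11.9%) and chromosome 13 the smallest (3.67%), and chromosome 3 had the most stretches (21).

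The longest positive stretch was chr14:105850001-106850000, which begins beside Spry2 and otherwise holds only the coding gene Trim52. Its mean polarity was 24.6 and 21.1 points (WT) and 29.7 and 21.0 points (KO) (replicates 1 and 2 in each pair). Both KO libraries kept the sign. KO replicate 1 was the highest library and KO replicate 2 was level with the lower WT library. In windows 100 kb apart, WT replicate 1 stayed between 18.8 and 30 points and WT replicate 2 between 13.5 and 27.6 points. KO replicate 1 lay between 20.7 and 35.5 points and KO replicate 2 between 8.72 and 32.1 points. The lowest values of WT replicate 2 and of KO replicate 2 were both in the last window before the falling end.

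The longest negative stretch was chr19:13650001-14650000, with Tle4 inside its rising end and a series of olfactory receptor genes towards its falling end. Polarity was -23.3 and -20.3 points in the WT libraries and -27.4 and -18.6 points in those of KO. KO replicate 1 was thus farther from 0 than both WT libraries and KO replicate 2 nearer. At the falling end, windows were at -20.6 and -13.9 points in WT, against -20.0 and -6.67 points in KO. A positive stretch begins where this negative one ends, at position 14650000.

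**Figure D2:**
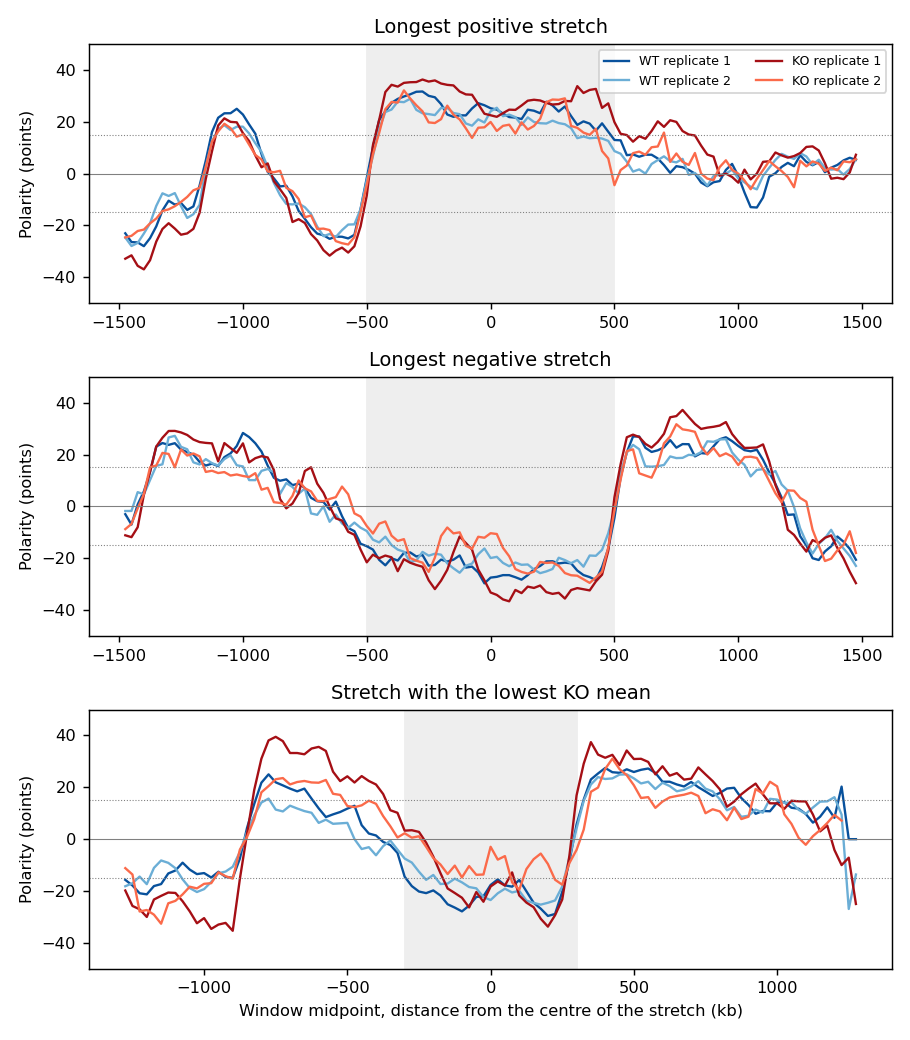
Polarity in points (vertical axis) against the distance of each window's midpoint from the centre of the stretch in kb (horizontal axis) in the 4 libraries, with the stretch shaded and dotted lines at 15 and -15 points. The upper panels show the 2 longest stretches, in which all libraries turn sharply at the rising end, on the left of the positive and on the right of the negative stretch. The lower panel shows the stretch on chromosome 5 whose KO mean was nearest to 0.

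The other 8 of the 10 longest stretches were 900 to 975 kb long. Of 5 stretches of 900 kb, the 2 with the higher mean polarity in WT, sign aside, took the last places among the 10. On chromosome 3, chr3:90450001-91425000 starts at Npr1, the receptor of atrial natriuretic peptide, and Ilf2, and runs across S100 calcium-binding protein genes. Its polarity was 26.0 and 21.9 points (WT) and 33.7 and 26.8 points (KO), so that KO values exceeded WT values in each pairing. The stretch chr10:66000001-66950000 overlaps no coding gene and had -24.9 and -23.0 points in the WT libraries and -31.7 and -25.3 points in those of KO. A positive stretch at chr1:143725001-144675000 begins with Glrx2, Uchl5 and Ro60, crosses Rgs13 and ends with Rgs21, at 24.3, 20.7, 32.8 and 20.9 points in WT replicates 1 and 2 and KO replicates 1 and 2. At chr8:75075001-76025000, which begins beside Mcm5, a subunit of the replicative helicase, and then crosses the 536 kb gene Iqcm, the values were 22.1, 18.8, 29.1 and 22.2 points.

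A further 2 of these stretches have their rising ends near Tbc1d15 and Gipc2. The former, chr10:114375001-115300000, holds Tph2, the neuronal tryptophan hydroxylase, and Trhde, a peptidase gene, and had -25.6 and -21.9 points in WT, against -30.2 and -25.9 points in KO. The latter, chr3:151275001-152200000, holds the adhesion receptor gene Adgrl4 and Ptgfr, the prostaglandin F receptor gene, and had -24.8 and -19.5 points (WT) and -32.0 and -20.4 points (KO). Ston2, an endocytic adaptor, and Sel1l, a component of protein degradation at the endoplasmic reticulum, mark the rising end of chr12:91750001-92650000 (26.9, 24.2, 30.5 and 20.3 points), where KO replicate 2 was below both WT libraries. Zbtb11 and Rpl24, a ribosomal protein gene, mark that of chr16:55075001-55975000 (-25.9, -19.6, -31.3 and -23.9 points).

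The ends of the stretches were unlike each other in the profile itself. Beyond the rising end, the mean profile over the stretches had already turned to the opposite sign 100 kb past the first window inside, at -6.69 and -5.36 points along the sign in WT and -6.62 and -4.37 points in KO. It reached -11.3 and -10.1 points in the WT libraries and -14.6 and -10.2 points in those of KO at 250 kb. Beyond the falling end, it was still positive at 200 kb, at 3.38 and 2.89 points in WT, against 7.01 and 3.98 points in KO, and declined without a sharp turn. The median distance to the sign change was 75 and 100 kb in WT and 100 and 100 kb in KO beyond the rising end, against 325 and 325 kb in WT and 400 and 350 kb in KO beyond the falling end.

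The KO libraries, which the rule did not use, gave the same order of the ends in most stretches. The sign change was nearer at the rising end in 186 of 232 stretches in KO replicate 1 and in 183 of 229 in KO replicate 2, for those with both sign changes. Slopes over the 500 kb beyond an end were steeper at the rising end in 169 of 234 and 170 of 232 stretches. Mean slopes in KO replicates 1 and 2 were 7.92 and 5.64 points per 100 kb beyond the rising end and 4.89 and 3.30 points per 100 kb beyond the falling end. The corresponding WT slopes, which the rule may affect, were 5.75 and 5.08 against 4.38 and 3.74. The KO difference between the ends, 2.68 points per 100 kb, depended on the length of flank: it was 6.46 over 300 kb and 0.442 over 1 Mb.

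With each stretch cut into 10 equal parts from its rising end, polarity was highest in part 3 and lowest in part 10. In part 3 it averaged 26.4 and 23.4 points (WT) and 35.0 and 25.9 points (KO), and in part 10 it averaged 19.2 and 16.3 points in the WT libraries and 22.2 and 15.3 points in those of KO. With 3 equal parts, the first lay above the last in 220 stretches in KO replicate 1 and 215 in KO replicate 2, against 195 and 197 in the WT libraries. In KO the means of the first and last of these parts were 33.4 and 25.7 points in replicate 1 and 24.4 and 18.1 points in replicate 2. In WT they were 24.9 and 21.7 points in replicate 1 and 21.9 and 18.6 points in replicate 2. The rule kept the WT mean at 15 points or more along the sign in every window. This limits the fall in WT but not in KO, so nothing is read from the difference between genotypes.

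**Figure D3:**
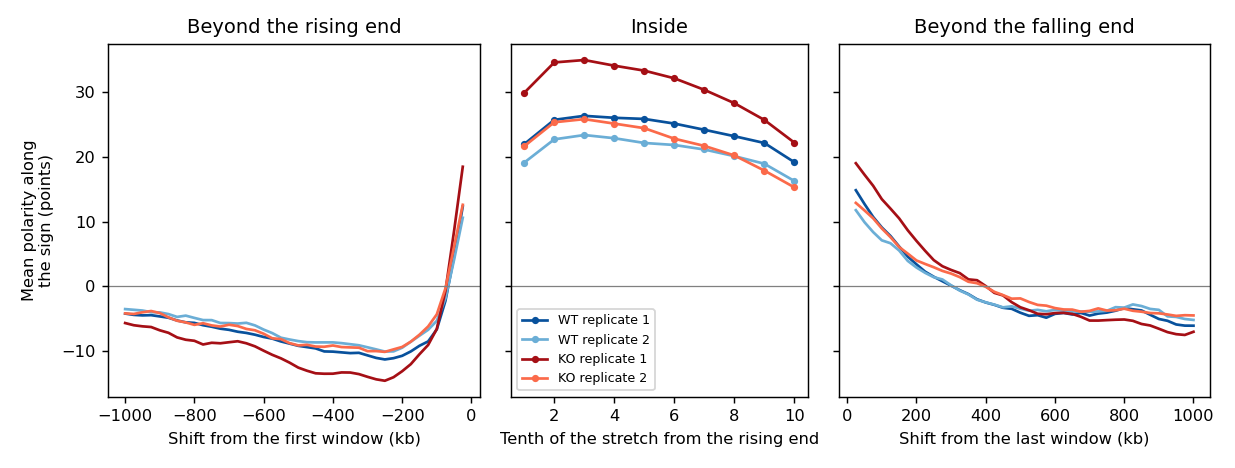
Mean polarity along the sign over the 243 stretches in each library, in points (vertical axis), for windows shifted by up to 1000 kb beyond the first window (left) and the last window (right), and for 10 equal parts of the stretch from the rising end (middle). All 4 lines cross 0 within 100 kb on the left; on the right the WT lines cross 0 near 300 kb and the KO lines near 400 kb.

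The distance to the sign change beyond the falling end was longer in both KO libraries than in both WT libraries. To keep the choice of stretches even between genotypes, this was measured on 343 stretches called by the same rule on the mean of all 4 libraries. Their mean profile changed sign 271 and 283 kb beyond the last window in WT and 384 and 354 kb beyond it in KO. The genotype means were 277 ± 8.49 kb and 369 ± 21.1 kb (SD, n = 2 each), a difference of 92.0 kb against a pooled replicate SD of 16.1 kb. An exact two-sided permutation test over the 4 libraries gave p = 0.33, the smallest that 2 against 2 libraries allow, and 0.733 after Benjamini-Hochberg adjustment over 11 such tests. Both KO libraries also lay beyond both WT libraries with stretches called on the WT mean (difference 94.5 kb) or on the KO mean (81.4 kb). The same held on the mean of standardised libraries (103 kb). For these, each library had its mean over autosomal windows subtracted, was divided by its SD and was put back on the mean WT SD.

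Taken per stretch instead of on the mean profile, the median distance beyond the falling end was 275 kb in both WT libraries and 350 and 300 kb in KO. At the rising end the groups did not overlap either, but the shift was small: the mean profile changed sign at 61.0 and 61.9 kb in WT and at 65.3 and 65.1 kb in KO, a difference of 3.72 kb (pooled SD 0.502 kb, exact permutation p = 0.33, adjusted 0.733). The median per stretch there was 75 kb in every library. The size of the falling-end difference depended on the rule for stretches. It was 77.9 kb at a threshold of 20 points, 57.8 kb at a threshold of 10 points and 35.2 kb with a minimum of 10 windows. On the mean of standardised libraries it was 103 kb for stretches of 20 or more windows, as given above, and 21.4 kb for those of 10 to 19 windows. All of these distances were chosen for measurement after the profile had been seen.

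Neighbouring stretches on a chromosome formed 224 pairs. In 71 pairs they faced away from each other, rising end to rising end, in 73 they faced each other, and in 80 they had the same sign. Of the pairs facing away, 22 were less than 500 kb apart and 11 touched or overlapped by 25 kb, so that polarity passed from beyond -15 to beyond 15 points within the length of 1 window. Of the pairs facing each other, 7 were less than 500 kb apart, none touched and the closest were 75 kb apart. The closest pair of the same sign was 1225 kb apart.

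Genes at or between the rising ends of stretches facing away include Lypla1 on chromosome 1, where the stretches touch, and Tmpo on chromosome 10, in a gap of 25 kb. Zfp42 on chromosome 8, a marker of pluripotent cells also known as Rex1, reaches from a gap of 75 kb into the positive stretch beside it. At chr2:56475001-58625000, 3 stretches follow each other, a negative and a positive one overlapping by 25 kb and a second negative one 200 kb further, past Galnt5. Their mean polarity was -22.1, 24.4 and -22.7 points in WT replicate 1 and -28.7, 23.6 and -26.2 points in KO replicate 1. It was -21.8, 20.3 and -21.7 points in WT replicate 2 and -17.4, 21.1 and -22.5 points in KO replicate 2. All 4 libraries showed both turns. Such an overlap was also seen at chr16:83900001-85400000, from -25.9 to 23.9 and from -23.0 to 19.9 points in WT replicates 1 and 2, and from -35.3 to 33.4 and from -25.3 to 25.4 points in KO replicates 1 and 2. On the positive side both KO libraries were farther from 0 than both WT libraries, and on the negative side KO replicate 2 lay between the WT libraries.

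Genes between the closest pairs facing each other are given as examples, and no test was made of what such gaps hold. Past the pairs named below, the gap of 200 kb on chromosome 2 holds Galnt5. Gaps of 425 kb include vomeronasal receptor genes on chromosome 6, olfactory receptor genes on chromosome 7 and no coding gene on chromosome 8. On chromosome 7, Vmn1r62 and Vmn1r61 lie in the 75 kb between a positive and a negative stretch, and mean polarity of the stretches went from 29.0 to -24.6 and from 22.5 to -23.3 points in the WT replicates. In KO replicates 1 and 2 it went from 30.9 to -29.6 and from 25.4 to -19.9 points. On chromosome 19, with Slc22a28, a solute carrier gene, in a gap of 75 kb, it went from 26.8 to -27.6 and from 23.7 to -23.5 points in WT replicates, and from 29.7 to -29.9 and from 25.6 to -24.3 points in KO replicates. Olfactory receptor genes fill the gap of 175 kb in the next closest pair, on chromosome 11. Every library kept the turn in these pairs.

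Gene content fell along the stretches, from dense at the rising end to sparse at the falling end. RefSeq protein-coding genes, placed by their midpoints, numbered 17.4 per Mb in the 100 kb before the rising end and 17.0 per Mb in the first of 10 equal parts of the stretch. They numbered 5.17 per Mb in part 5, 3.85 per Mb in part 10 and 4.53 per Mb in the 100 kb beyond the falling end. All usable windows held 8.51 per Mb, the stretches as a whole 6.63 per Mb and shorter runs past the threshold 8.59 per Mb. Positions of genes were not used by the rule, but no test of these counts was made. Coding genes covered 33.2% of the stretches, 42.8% of the shorter runs and 41.04% of all usable windows.

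CpG-rich gene starts, with 10 or more CpG in the 250 upstream bases (52.0% of 16212 promoter sequences), showed the gradient most clearly. Over 208 stretches in regions where promoter sequences were at hand, they numbered 10.8 per Mb in the last 100 kb before the rising end, 10.6 per Mb in part 1 and 2.46 per Mb in part 3. None of the 56 gene starts in part 10 was CpG-rich, and in the first 100 kb beyond the falling end there were 0.192 per Mb. Other gene starts changed less, from 6.12 per Mb in part 1 to 3.94 per Mb in part 10. Of the promoters printed above, those of Spry2, Tle4 and Cdc73 are CpG-rich by this minimum and those of Olfr1490 and Rgs21 are not. The contrast was as clear with a minimum of 5 CpG (13.7 against 0.281 per Mb in parts 1 and 10) or 20 CpG (5.28 against 0 per Mb).

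A CpG-rich start lay within 100 kb of the rising end in 166 of these 208 stretches (79.8%) and within 100 kb of the falling end in 5. The same was true of 38.9% of all usable window midpoints. Cut at its midpoint, a stretch held more gene starts on the side of the rising end in 150 cases and on the side of the falling end in 20, with equal numbers in 38. CpG-rich starts numbered 285 on the former side and 31 on the latter. Shorter runs had a like gradient: from 10.5 to 0.612 CpG-rich starts per Mb between parts 1 and 10 of runs of 10 to 19 windows, and from 10.1 to 1.36 in runs of 5 to 9 windows. Beyond their falling ends the first 100 kb held 0.902 and 2.33 per Mb. Direction of transcription was close to even, with 54.3% of 873 gene starts along the sign (that is, on the plus strand in positive stretches) against 52.1% over all usable windows.

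**Figure D4:**
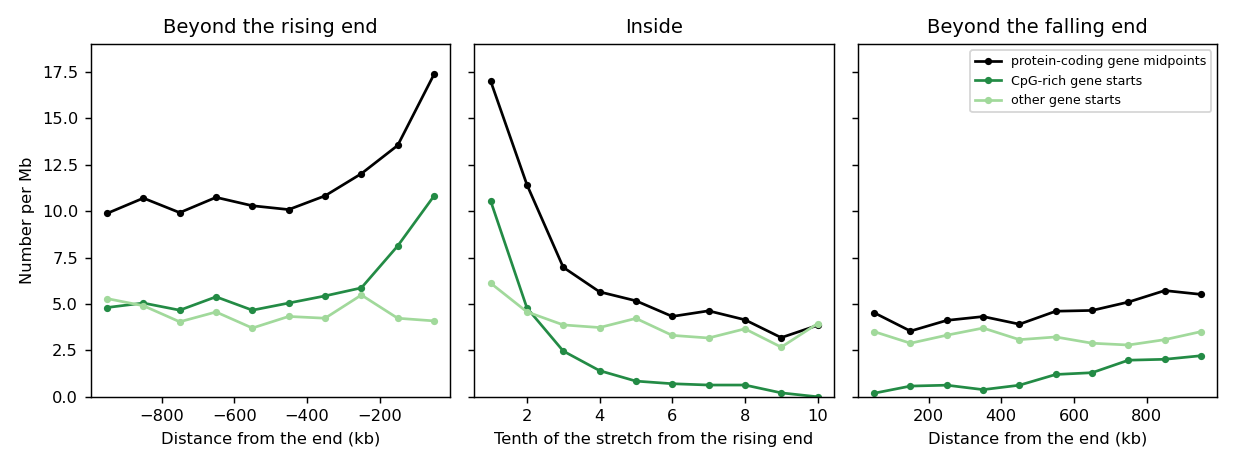
Number per Mb (vertical axis) of protein-coding gene midpoints (black, 243 stretches), CpG-rich gene starts (dark green) and other gene starts (light green, both over 208 stretches), in steps of 100 kb beyond the rising end (left), by 10 equal parts inside (middle) and in steps of 100 kb beyond the falling end (right). CpG-rich starts peak at 10.8 per Mb beside the rising end and reach 0 in part 10.

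Large receptor families filled part of the stretches. Of 1099 olfactory receptor genes, 200 (18.2%) lay inside, in 11 stretches, against 5.44% of all 20285 coding genes, and 125 of the 200 lay between the midpoint and the falling end, against 335 of 1103 coding genes. Of 272 vomeronasal receptor genes, which serve pheromone detection, 43 (15.8%) lay inside, also in 11 stretches. Genes of such a family sit side by side, so these counts are not of independent genes. The stretch with the most coding genes, 45 by midpoint, was chr7:103550001-104250000, a cluster of olfactory receptor genes that also holds the adult beta-globin genes Hbb-bs and Hbb-bt. Its polarity was -26.0 and -21.7 points in WT, against -28.9 and -22.5 points in KO. At the other extreme, 7 stretches overlapped no coding gene.

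Of 20 pluripotency genes, 3 lay in stretches: Klf5, Zfp42 and Dppa4. All 3 were nearer to the rising end, as were 768 of the 1103 coding genes in stretches. For this list and those that follow, the share of all coding genes inside was the 5.44% given above, and counts this small are given as a description, with nothing read from them. Klf5, a Kruppel-like transcription factor, lies in chr14:98450001-99325000, at -22.7 and -18.5 points (WT) and -30.3 and -24.3 points (KO). The stretch that starts at Zfp42, chr8:43300001-43900000, had 26.9 and 19.6 points in the WT libraries and 30.5 and 21.6 points in those of KO. Dppa4, a chromatin-associated protein of pluripotent cells, ends chr16:47625001-48300000, at -25.0 and -22.1 points in WT, against -31.5 and -21.4 points in KO. KO replicate 1 was the farthest from 0 in all of these, whereas KO replicate 2 lay beyond both WT libraries only at Klf5.

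Of 39 replication factor genes, 4 lay in stretches: Prim2 (the large primase subunit), Orc3 (a subunit of the origin recognition complex), Lig1 (the ligase of Okazaki fragments) and Mcm5. Orc3 lay on the side of the falling end and the other 3 on that of the rising end. For Lig1, in chr7:13000001-13675000, polarity was 26.4 and 22.3 points (WT) and 33.7 and 24.8 points (KO). For Prim2, in chr1:32825001-33725000, it was -22.4 and -19.2 points in the WT libraries and -31.3 and -21.1 points in those of KO. Orc3, in chr4:34300001-34900000, had -20.8 and -19.7 points in WT, against -28.3 and -20.5 points in KO. In these 3, KO replicate 2 lay between the WT libraries.

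Of 48 developmental transcription factors, Sox17, an endoderm regulator, was the only member inside, on the side of the falling end. The stretch with Sox17, chr1:4250001-4825000, had -24.5 and -22.9 points (WT) and -33.7 and -26.4 points (KO). None of 40 long neural genes, 73 histone genes or 12 genes of ISWI subunits had its midpoint in a stretch, against that 5.44% of all coding genes. Coding genes of more than 500 kb numbered 17 of 1103 in stretches and 216 of 20285 in all usable windows.

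Both KO libraries kept the sign of nearly every stretch. Mean polarity along the sign over the 243 stretches was 24.0 and 20.9 points in WT (SD over stretches 1.89 and 1.84) and 30.6 and 22.1 points in KO (SD over stretches 3.13 and 2.93). KO replicate 1 was above the others and KO replicate 2 lay between the WT libraries. In KO replicate 1 every window of 242 stretches had the sign of the stretch, and in KO replicate 2 every window of 234. Means of single stretches ranged from 19.4 to 37.7 points in KO replicate 1 and from 10.3 to 28.6 in KO replicate 2, and their mean over both KO libraries was at least 15 points in 242 stretches.

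Window by window, the sign was kept in 99.98% of 5924 windows in KO replicate 1 and 99.8% of 5920 in KO replicate 2, with 1 and 7 windows of the opposite sign. Values past 15 points made up 97.9% and 84.4%. In shorter runs past the threshold the sign was kept in 99.5% and 98.8% of windows, and 92.6% and 72.5% were past 15 points. The long stretches were compared with shorter runs at matched WT level as well. Among windows with a WT mean of 20 to 25 points, KO replicates 1 and 2 were at 31.0 and 22.4 points in the long stretches and at 29.7 and 21.5 in the shorter runs, where the WT means were 22.6 and 22.2.

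Called in each library alone, there were 298 and 171 long stretches in the WT libraries, against 567 and 165 in those of KO. KO replicate 1 had the most and KO replicate 2 the fewest, so the genotypes overlapped. The difference of 131.5 stretches (pooled replicate SD 211) had an exact permutation p of 1. Without KO replicate 1 it was -69.5 and without KO replicate 2 it was 332.5. With each library standardised, WT had 242 and 214 and KO had 252 and 126, so the difference became -39. Stretches called in 1 standardised library had a like level in the others. In units of the library's SD, stretches called in KO replicate 1 averaged 1.56 and 1.54 in the WT libraries, and those called in WT replicate 1 averaged 1.56 and 1.50 in the KO libraries.

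Of the 243 stretches, 212 (87.2%) were covered for at least 50% of their length by stretches called on the KO mean, which numbered 426, of which 212 (49.8%) were so covered in turn. After standardising, 146 of 239 WT stretches (61.1%) and 146 of 217 KO stretches (67.3%) were covered. Over the 343 stretches called on all 4 libraries, polarity along the sign was 22.7 and 19.7 points in the WT libraries and 30.3 and 22.0 points in those of KO. The difference of 4.90 points was close to the pooled replicate SD of 4.42 points (exact permutation p = 0.667). It was 0.585 points without KO replicate 1 and 8.80 points without KO replicate 2, and -0.403 points after standardising. KO replicate 1, the library with the largest SD of polarity over all windows, was also the highest here.

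**Figure D5:**
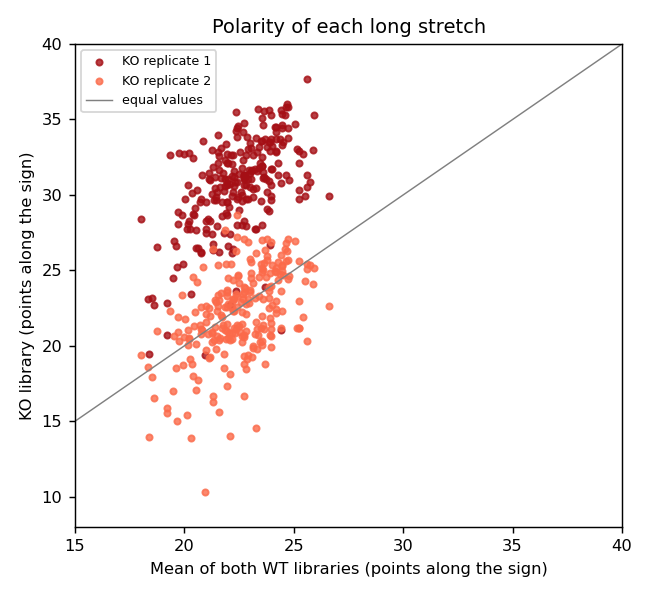
Mean polarity along the sign of each long stretch in KO replicates 1 and 2 (vertical axis, points) against the mean of both WT libraries (horizontal axis, points), with a line of equal values. Most points of KO replicate 1 lie above the line, those of KO replicate 2 lie around it, and 1 stretch lies at 10.3 points in KO replicate 2.

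Single windows gave no call in the stretches. With limma and Benjamini-Hochberg adjustment over 23672 windows that do not overlap, 13 windows passed an adjusted p of 0.05 (0.0549% of all), and 0 of the 1483 in long stretches did. At an unadjusted p under 0.05 the stretches held 115 windows (7.75%), against 12.2% of all windows, and 110 of the 115 were farther from 0 in KO. This direction turned with the scale. After standardising, 107 stretch windows passed at that p (7.22%, against 14.4% of all windows), 10 farther from 0 in KO and 97 nearer. The direction also turned without KO replicate 1, and without WT replicate 2, where stretches were called on WT replicate 1 alone. With replicate number as a block it stayed, at 208 farther and 17 nearer (15.2% of stretch windows, 17.6% of all). A trended, robust fit gave 31 and 6 (2.49%, 12.5%) and overlapping windows 467 and 35 (8.48%, 12.1%). The block with standardising turned it, at 14 and 109 (8.29%, 16.2%). Without WT replicate 1 or KO replicate 2, most such windows were farther. Both KO libraries lay farther from 0 than both WT libraries in 474 stretch windows (32.0%), against 33.6% of all windows, and nearer in 53 (3.57%), against 11.1%. After standardising, these counts were 184 and 377. The shares over all windows are for the deposited scale and are not given for the standardised one. WT values chose the stretch windows, so nothing is read from these counts and shares. The count of calls changed with the libraries kept. With 1 library left out, that genotype is 1 library, assumed to vary like the other genotype's pair, which alone gives the spread. In what follows, each count is of stretch windows called, and the percentage after it is the share called among all 23672 windows tested. Without KO replicate 2 the count was 436 (20.2% of all windows called), without KO replicate 1 it was 41 (5.79% of all), without WT replicate 1 it was 1 (0.0338% of all), and without WT replicate 2 it was 0 (0.0296% of all), the latter pair with stretches called anew on the WT library kept. The replicate block gave 9 (2.66% of all windows called), and 8 of the 9 were farther from 0 in KO. Standardising gave 1 (0.372% of all) and both together 20 (3.62% of all), each of these nearer to 0 in KO. Limma's trend and robust options gave 1 (1.28% of all), and overlapping windows, 94694 in all, gave 0 (0.076% of them).

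As whole stretches, 47 had both KO libraries farther from 0 than either WT library, and 2 had both nearer. After standardising, a setting added for these counts and those by window after the data were seen, the same stretches counted 22 and 98. The direction of these counts thus depends on the scale. Over all 4280 stretches past 15 points, of any length and with a value in every library, the shares on the deposited scale were 26.6% and 9.3%. They are not given for the standardised scale. WT values chose the stretches and their lengths, so nothing is read from these counts and shares either. The first of the 2 stretches with both KO libraries nearer to 0 is chr5:13400001-14000000, the stretch with the lowest KO mean, at -22.2 and -19.6 points in WT, against -19.4 and -10.3 points in KO. It lies across the 3′ part of Sema3a, an axon guidance gene, and its falling end is inside that gene. In the window chr5:13400001-13500000 the values were -20.2 and -12.6 points (WT) and 2.8 and 1.11 points (KO). This was the stretch window with the lowest limma p, with a difference of 18.3 points and an adjusted p of 0.140. In the window 100 kb below, just outside, WT was at -2.27 and -0.526 and KO at 11.2 and 5, and KO was higher there too. At the other end the 4 libraries turned together: the last 100 kb of the stretch was at -20.3, -18.2, -23.3 and -17.6 points and the next 100 kb at 23.0, 21.1, 37.4 and 18.3 points.

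The second is chr7:41025001-41600000, which holds vomeronasal receptor genes such as Vmn2r57, at -24.4 and -24.3 points in the WT libraries and -21.1 and -21.2 points in those of KO. The next lowest KO means belonged to chr6:137825001-138400000, at Lmo3, a LIM domain transcription cofactor gene, and to chr6:111875001-112550000, which holds Lmcd1 and the oxytocin receptor gene Oxtr. The former was at 19.4 and 17.4 points in WT, against 19.4 and 13.97 points in KO, and the latter at -20.0 and -18.4 points (WT) and -20.7 and -15.5 points (KO). In both, KO replicate 1 was level with or beyond WT replicate 1, and only KO replicate 2 was nearer to 0 than the WT libraries.

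The highest KO means were in chr3:50425001-51225000, at Slc7a11, the cystine transporter gene, in chr10:63350001-64025000, which holds Lrrtm3 within the long gene Ctnna3, and in chr7:73600001-74225000, with St8sia2, a polysialyltransferase gene. At Slc7a11 polarity was -24.1 and -20.6 points in the WT libraries and -34.4 and -28.6 points in those of KO. At Ctnna3 it was 26.7 and 22.8 points in WT, against 35.8 and 27.1 points in KO. At St8sia2 it was 26.3 and 24.9 points (WT) and 37.7 and 25.1 points (KO). Both KO libraries lay beyond both WT libraries at Slc7a11 and Ctnna3, and at St8sia2 KO replicate 2 lay between them. These stretches were picked for their KO values, which are given as a description.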

How the data were processed

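The deposited scores, per the file headers, are 1 signed strand imbalance per window and library on GRCm38, from reads that the authors aligned with Bowtie2 and deduplicated. The submitters' processing notes list Trim Galore 0.6.5 and Bowtie2 2.4.1. The strand counted as positive, any minimum of reads per window and the depth are not given in the sources used here, so no counting interval was computed.

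From these scores the long stretches were called by the rule in the report on 98520 autosomal windows, of which 95024 had a value in both WT libraries. A window without a value ends a stretch. Positions of the ends are set by windows of 100 kb. The stretches and the gene lists were chosen with earlier results of these data known, as were the measures of the flanks. Distances beyond an end are shifts of a window from the first or last window inside, and the sign change of a mean profile was interpolated between windows. Genes came from a RefSeq table of GRCm38.p6 and promoters from a RefSeq table of upstream sequences, used only in blocks of 5 Mb where at least 60% of coding genes had one. The rule for naming took the 10 longest stretches with up to 3 of their longest coding genes, the 3 stretches with the lowest and the 3 with the highest KO mean with the longest gene of each, the 3 shortest gaps of each kind between stretches of opposite sign, and list members in stretches. Other genes were named after their values were seen. Results for a few list members are not reported here.

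For values per library, an exact permutation test (two-sided) ran over the 6 orders of the 4 libraries. The test per window used limma 3.58.1 (R 4.3.3). It was tested on simulated data with the same spread in all 4 libraries. There it recovered 199 of 200 windows that had been shifted by 30 points among 23672, with 6 false calls. This shift is larger than the 18.3 points in the stretch window with the lowest p, and smaller shifts were not simulated. The rule for stretches recovered 43 of 43 planted ones. Replicates share numbers between genotypes in the labels, and a fit with the number as a block was made as an alternative, beside other thresholds, lengths, scalings, flanks and omission of each library. The sign-change measures, the CpG minimum and the profile inside the stretches were chosen after seeing the data. Python 3.11.15 was used.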

Additional observations from a re-analysis of the deposited data

Results flagged for a closer look

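The X chromosome was left out of the rule, and it also carried long stretches. Called in each library alone, they numbered 22 and 9 (mean 15.5) without the knockout and 43 and 15 (mean 29) with it. After standardising each library WT had 13 and 13 and KO had 19 and 10. The genotypes overlapped on both scales. The 13 stretches called on the WT mean averaged 24.8 and 21.0 points along the sign in WT and 30.0 and 22.9 points in KO.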

How the results depend on the processing

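Number and total length of the stretches depended on the thresholds: 587 (427 Mb) at 10 points, 60 (37.7 Mb) at 20 points, 1108 (528.275 Mb) with at least 10 windows, and 0 (0 Mb) with at least 40 windows. Standardising, centring, a running mean of 5 windows or 1 window allowed under the threshold gave 239 to 270. The ratio of coding genes per Mb in stretches to all usable windows was 0.780, and it was 0.864 with all RefSeq genes and 0.871 with at least 10 windows. The KO minus WT difference in stretches per library (131.5) reversed to -39 after standardising and ranged from -69.5 to 332.5 with 1 library left out. That in polarity (4.90 points) reversed to -0.403 points after standardising and ranged from 0.585 to 8.80. Windows in stretches called by limma (0) numbered 1 after standardising, 9 with the replicate block, 20 with the replicate block and standardising, 1 with limma's trend and robust options, and 0 to 436 with 1 library left out, where the spread comes from the other genotype's pair. The cause of these changes was not tested. KO slopes were steeper at the rising end by 2.68 points per 100 kb over 500 kb, 6.46 over 300 kb and 0.442 over 1 Mb. The fall in KO from the first to the last of 3 equal parts was 7.003 points, and 5.71 points after standardising. The falling-end sign change was farther in KO under every alternative run, by 21.4 kb (stretches of 10 to 19 windows, standardised libraries) to 105 kb. With the replicate block it was 92.0 kb, the polarity difference 4.90 points and the difference in stretches 131.5. With balanced blocks these equal the values without the block by arithmetic, so they are no check of them. Deviations of same-numbered libraries correlated at 0.2406 over windows, but with 2 pairs the numbers were not taken as pairing the libraries. Depth is unknown, and 2 libraries per genotype limit the precision of every comparison.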
